A study of Mus musculus with 6 samples.

Results

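The neurons described here were the nuclei that the study's authors placed in their cluster "Inhibitory neuron 2", which is marked by Zic1, Zic4, Prkcd and Igfbpl1. The cluster was taken as annotated, and it held 1066 of the 28650 nuclei (3.72%), 6.06% of the 17592 neuron nuclei and 24.3% of the 4382 nuclei of the inhibitory class. The nuclei came from microdissected hippocampi of male PS19 mice, which carry human tau with the P301S mutation, and every group carried this transgene. Mice had a controlled cortical impact to the right hemisphere, a mild traumatic brain injury (TBI), or a sham procedure, and received an AAV vector for VEGFC or for GFP. Each combination had 1 library, named here by injury, vector and side: TBI VEGFC left, TBI GFP left, TBI VEGFC right, TBI GFP right, sham VEGFC right and sham GFP right. The labels give no age and no number of mice per library. They do not state if the 2 hemispheres of a mouse were split over libraries. With 1 library per combination, p-values of the gene tests rest on departures from additive effects, not on spread between like libraries or between mice.

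Zic genes encode zinc-finger transcription factors that pattern the dorsal midline of the embryonic brain and stay on in some adult neurons, among them neurons of the septum, the thalamus and the cerebellum. Prkcd encodes protein kinase C delta, long used as a marker of thalamic relay neurons and of a class of neurons in the central amygdala. The septum lies next to the anterior hippocampus and exchanges fibres with it through the fimbria and fornix, and its lateral part is made mostly of GABA-releasing neurons. Neither Zic1 nor Prkcd is a usual marker of hippocampal interneurons, so the question addressed was which region's marker genes these nuclei carried, and how they varied with injury and vector.

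Zic1 and Zic4 lie next to each other and took places 2 and 3 by ratio to other neurons, so the stretch upstream of each start is shown. In the GENCODE annotation of mouse build GRCm38, Zic1 spans chr9:91358058-91365810 on the minus strand and Zic4 spans chr9:91362413-91389348 on the plus strand. The 2 gene models overlap on opposite strands over 3398 bases. The sources do not state how counting treated strand, and the part of the overlap in the counts was not tested. The RefSeq starts of the genes lie 3203 bases apart. The 250 bases upstream of each RefSeq start (GRCm38.p6), at chr9:91365769-91366018 on the minus strand for Zic1 and chr9:91368722-91368971 on the plus strand for Zic4, read as follows, with capitals for the GC box GGGCGG, the Meis-type motif TGACAG and the homeodomain motif TAATTA on either strand.
Zic1: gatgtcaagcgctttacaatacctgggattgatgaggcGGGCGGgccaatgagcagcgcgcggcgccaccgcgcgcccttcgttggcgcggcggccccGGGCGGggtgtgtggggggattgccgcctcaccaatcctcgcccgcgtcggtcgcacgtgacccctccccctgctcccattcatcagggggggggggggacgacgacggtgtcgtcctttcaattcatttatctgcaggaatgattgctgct
Zic4: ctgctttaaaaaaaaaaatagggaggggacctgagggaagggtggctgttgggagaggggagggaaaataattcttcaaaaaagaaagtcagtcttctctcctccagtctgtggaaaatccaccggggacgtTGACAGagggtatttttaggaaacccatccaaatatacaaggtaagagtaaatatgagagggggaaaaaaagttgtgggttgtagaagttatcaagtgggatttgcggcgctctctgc
The Zic1 stretch held 27 CpG dinucleotides, more than 91.4% of 32851 RefSeq promoters over the same length, and 2 GC boxes, a motif present in 32.7% of those promoters. The Zic4 stretch held 4 CpG dinucleotides and 1 TGACAG, a motif present in 15.9% of promoters. Neither held TAATTA, present in 4.84% of promoters. These matches describe the letters alone.

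The libraries had 15358208 to 18379148 UMIs (unique molecule counts) in all, of which 280861 (TBI VEGFC left) to 1439986 (sham VEGFC right) were in the cluster. Median UMIs per nucleus of the cluster lay between 3544.5 and 5752, and the median mitochondrial share between 0.0751% and 0.141%. The authors' doublet score stood apart in the TBI VEGFC libraries: its median in the cluster was 0.0816 on the left and 0.0700 on the right, against 0.0362 to 0.0459 in the other 4 libraries. In those 2 libraries all other neurons had median scores of 0.0489 and 0.0518. Only 4 of 46 nuclei in TBI VEGFC left and 10 of 92 in TBI VEGFC right scored at most 0.05, and values for such nuclei stand beside the calls and directions that they change. Of the cluster's nuclei, 2 carried a barcode that also occurred in another library, against 182 nuclei over the series. The mouse Vegfc gene had 10.1 to 10.9 CPM (UMIs scaled to a fixed library total) over all nuclei in every library, VEGFC and GFP alike, and since the labels do not say which species' VEGFC the vector carries, these counts do not check it.

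The 4 marker genes were high in the cluster in every library. Zic1 had 385, 292, 281, 272, 254 and 317 CPM in the cluster, in the order in which the libraries are listed above, and at most 4.21 CPM in all other neurons of any library. In the same order Zic4 had 278, 206, 171, 205, 160 and 208 CPM, and at most 2.91 CPM in other neurons. Prkcd had 193 ± 8.93 CPM in the cluster and 4.38 ± 0.994 CPM in other neurons (SD, n = 6 libraries each). Igfbpl1, which encodes a secreted protein of the IGF-binding family known from newborn neurons, had 118 ± 32.5 CPM in the cluster and 1.96 ± 0.708 CPM in other neurons (SD, n = 6 each). The cluster's values lay above those of other neurons in 6 of 6 libraries for all 4 markers. As the cluster was made from these genes, these levels are a description and carry no test.

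Zic2 and Zic5 followed. Zic2 averaged 40.2 CPM and Zic5 71.3 CPM in the cluster, against 0.734 and 0.583 CPM in other neurons, and Zic1, Zic2, Zic4 and Zic5 had their highest value among the 24 neuron clusters here. Outside neurons, the Zic genes were also high in other classes: Zic1 had 492 CPM and Zic4 540 CPM in fibroblasts, and Zic1 had 94.6 CPM in choroid plexus epithelium. Prkcd had 292 CPM in microglia, above its 191 CPM in the pooled nuclei of the cluster. A UMI of Zic1 or Zic4 was found in 801 of 1066 nuclei (75.1%, exact 95% interval 72.4% to 77.7%), against 0.274% of nuclei in Excitatory neuron 2, the neuron cluster with the highest dentate granule list. Median UMIs were 4327 in the cluster and 3033 in Excitatory neuron 2. With each nucleus thinned to 2000 UMIs, which left 1027 nuclei of the cluster and 2161 of Excitatory neuron 2, the shares were 51.5% and 0.0463%. Intervals on shares cover counting error only.

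Genes for GABA release were present and those for vesicular glutamate loading were near 0. Gad1 and Gad2, which encode the enzymes that make GABA, averaged 187 ± 14.3 CPM and 252 ± 24.9 CPM in the cluster, against 63.1 and 70.7 CPM in other neurons. Slc32a1, which loads GABA into vesicles, averaged 81.3 CPM against 19.2 CPM. A UMI of any of these 3 genes was found in 84.3% of the cluster's nuclei and in 12.6% of Excitatory neuron 2 nuclei. The glutamate transporter gene Slc17a7 had 28.5 CPM in TBI VEGFC left and 6.64 to 11.1 CPM in the other 5 libraries of the cluster, against 163 to 210 CPM in other neurons. Slc17a6, the transporter of thalamic relay cells, averaged 1.33 CPM against 13.2 CPM, and Slc17a8 had 0 of 4852513 UMIs, which allows up to 0.618 CPM.

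**Figure D1:**
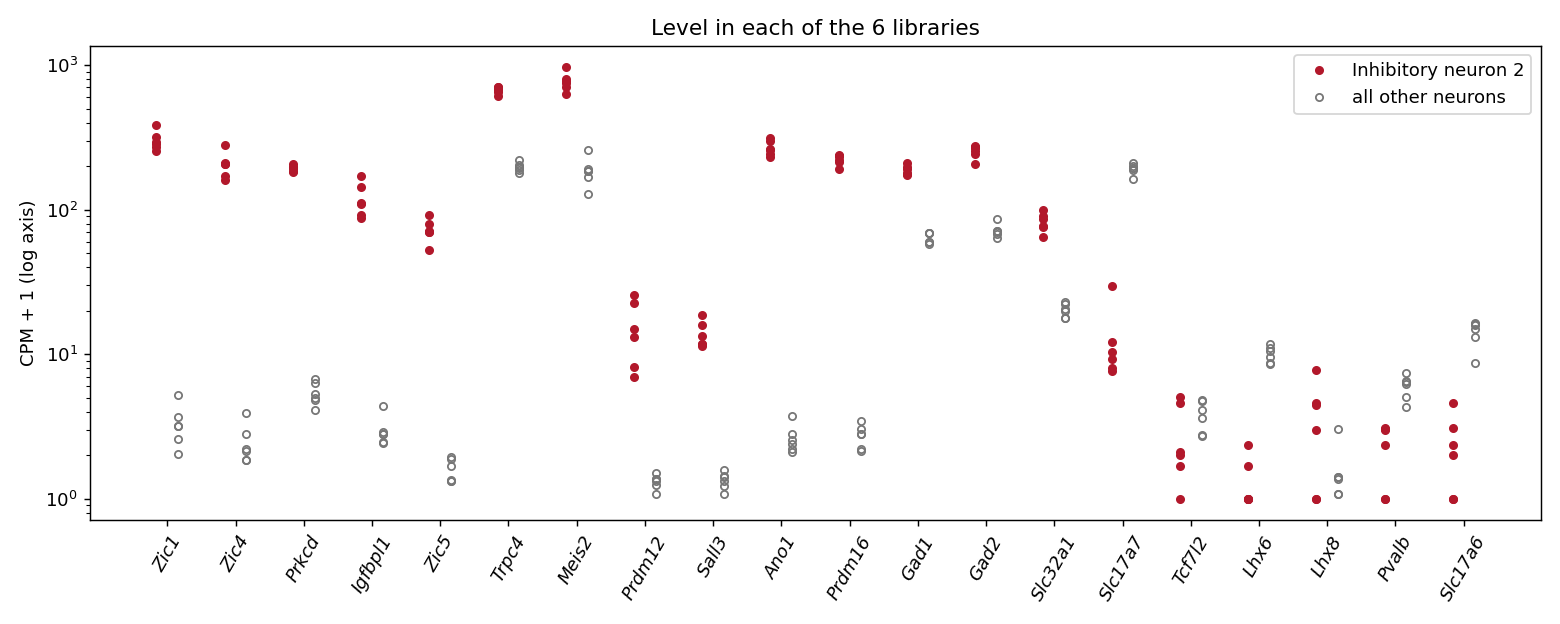
Level (CPM + 1, log axis) of 20 marker genes in each of the 6 libraries, in Inhibitory neuron 2 (filled, left of each pair) and in all other neurons (open, right). Zic1, Zic4, Prkcd, Igfbpl1, Ano1 and Prdm16 separate the 2 sets in every library, and Tcf7l2, Lhx6, Lhx8, Pvalb and Slc17a6 are near the floor in the cluster.

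Among the region lists, the list of lateral septum genes stood highest. Its 10 genes outside the cluster's own markers had a median log2 ratio of 2.33 to other neurons (2.28 to 2.46 over libraries), 9 of 10 were more than 2-fold higher and 6 had their highest value of any neuron cluster here. For scale, 6.55% of the 7736 genes with at least 20 CPM and a UMI in every library were more than 2-fold higher in the cluster, and their median log2 ratio was 0.11. The receptor-operated channel gene Trpc4, whose transcript is abundant in rodent lateral septum, had 609, 704, 703, 686, 649 and 671 CPM in the cluster in the library order given above, against 179 to 219 CPM in other neurons. Its level in the cluster was the highest of all 32 clusters, neuronal or not. Meis2, a homeodomain factor of ventral forebrain GABA neurons, averaged 771 ± 110 CPM against 186 CPM, although Inhibitory neuron 7 had more (2688 CPM). The transcription factor genes Prdm12 and Sall3 were rare but nearly private among neurons, with 14.2 ± 7.55 CPM against 0.317 CPM and 12.8 ± 2.95 CPM against 0.342 CPM. Crhr2, a receptor for urocortins, averaged 14.5 CPM against 1.54 CPM, and the neuropeptide gene Nts averaged 9.72 CPM against 4.12 CPM. The oestrogen receptor gene Esr1 ran the other way, with 6.02 CPM in the cluster and 11.8 CPM in other neurons. Without any Zic gene the list's median over 8 genes was 1.93.

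The other septal lists were near the floor in their genes outside the cluster's markers. The medial septum and diagonal band list holds Zic1 and Zic4, which were left out. Its other 7 genes were all under 5 CPM, with a median log2 ratio of 0.42. By pooled counts this list ranked 2 among the 24 neuron clusters. Among its genes were Lhx8 (2.63 against 0.567 CPM), a cholinergic lineage factor, and Chat (1.67 against 0.567 CPM), which makes acetylcholine. The triangular septal list holds Zic1, Zic4 and Igfbpl1, markers of this cluster, and only its other 3 genes were used. Of these, Sln had 0.509 CPM, on 2 UMIs, and the glutamate transporter gene Slc17a6 was at the 1.33 CPM given above.

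The thalamic relay list, which holds Prkcd, was not raised in its other members. Its 15 genes outside the markers had a median log2 ratio of -0.47, 10 of them were under 5 CPM, and 1 was more than 2-fold higher. Tcf7l2, the defining transcription factor of thalamic relay cells, had 1.73 CPM in the cluster and 2.80 CPM in other neurons, and Lef1 had 0.416 CPM. Shox2 and Tnnt1 had no UMI, which allows up to 0.618 CPM each. Gbx2, on the same list, was not analysed here. Foxp2 was the member that was higher, at 152 ± 53.6 CPM against 64.6 ± 31.7 CPM (SD, n = 6 each), and it marked a minority of nuclei described further below.

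The thalamic reticular nucleus list came closest to the lateral septum list, with a median log2 ratio of 1.82 and 7 of 9 genes more than 2-fold higher. It shares Gad2 and Meis2 with that list and Gad1 with the GABA list. Over the 4 genes that no other region or transmitter list holds, its median was 2.32, against 2.19 for the 6 such genes of the lateral septum list, so these medians alone do not order the 2 lists. Its members differed in direction: Isl1 (22.1 against 1.91 CPM) and Ecel1 (30.8 against 5.68 CPM) were high, while Pvalb, the calcium buffer of reticular neurons, had 1.25 CPM against 4.98 CPM and Gnb3 had 2 UMIs in all. Spp1 averaged 18.9 CPM, but 1 nucleus held 46.3% of its 108 UMIs.

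Lists of other forebrain regions were lower or mixed. The hippocampal interneuron list had a median log2 ratio of -0.32 and ranked 5 among the 24 neuron clusters by pooled counts. Lhx6, the factor of interneurons from the medial ganglionic eminence, had 0.34 CPM (2 UMIs) against 8.998 CPM, and Adarb2 had 37.5 CPM against 894 CPM. Lhx6 had 72.1 and 108 CPM in Inhibitory neurons 1 and 6, but 0.27 and 0 CPM in Inhibitory neurons 3 and 8. Adarb2 had 9595, 4080 and 565 CPM in Inhibitory neurons 3, 8 and 6, but 12.9 CPM in Inhibitory neuron 1. Excitatory neuron 2, among the other neurons, had 1512 CPM of Adarb2. Of its 12 genes 5 were more than 2-fold lower and 2 more than 2-fold higher, Ndnf (66.8 CPM against 13.2 CPM) and Nxph1 (692 CPM against 324 CPM), while Sst (45.9 CPM against 50.9 CPM) and Reln (99.1 CPM against 85.6 CPM) were at like levels. The striatal projection list had a median of -0.44 and the central amygdala list, without Prkcd, of -0.61. Within the striatal list Drd2, which encodes the dopamine D2 receptor, was higher (32.2 CPM against 4.30 CPM) while Drd1 (5.26 CPM against 7.21 CPM) and Adora2a (0.778 CPM against 1.504 CPM) were not. The dentate granule, CA1, CA3 and cortex lists had medians of -2.34, -1.90, -1.37 and -2.23. The lateral habenula list had a median of 1.14, led by Sox1 (43.4 against 3.41 CPM), but of its habenular genes Pou4f1 had 0 UMIs and Gpr151 had 1 UMI. Medians were above 0 also for the olfactory bulb and neuroblast list (1.29) and the zona incerta list (1.31). Neurod6 and Neurod2, transcription factor genes of cortical excitatory neurons, had 1.44 and 2.16 CPM against 105 and 70.9 CPM. The region lists describe which markers were present; no nucleus carried a label of its region, and the sources state hippocampus as the tissue.

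**Figure D2:**
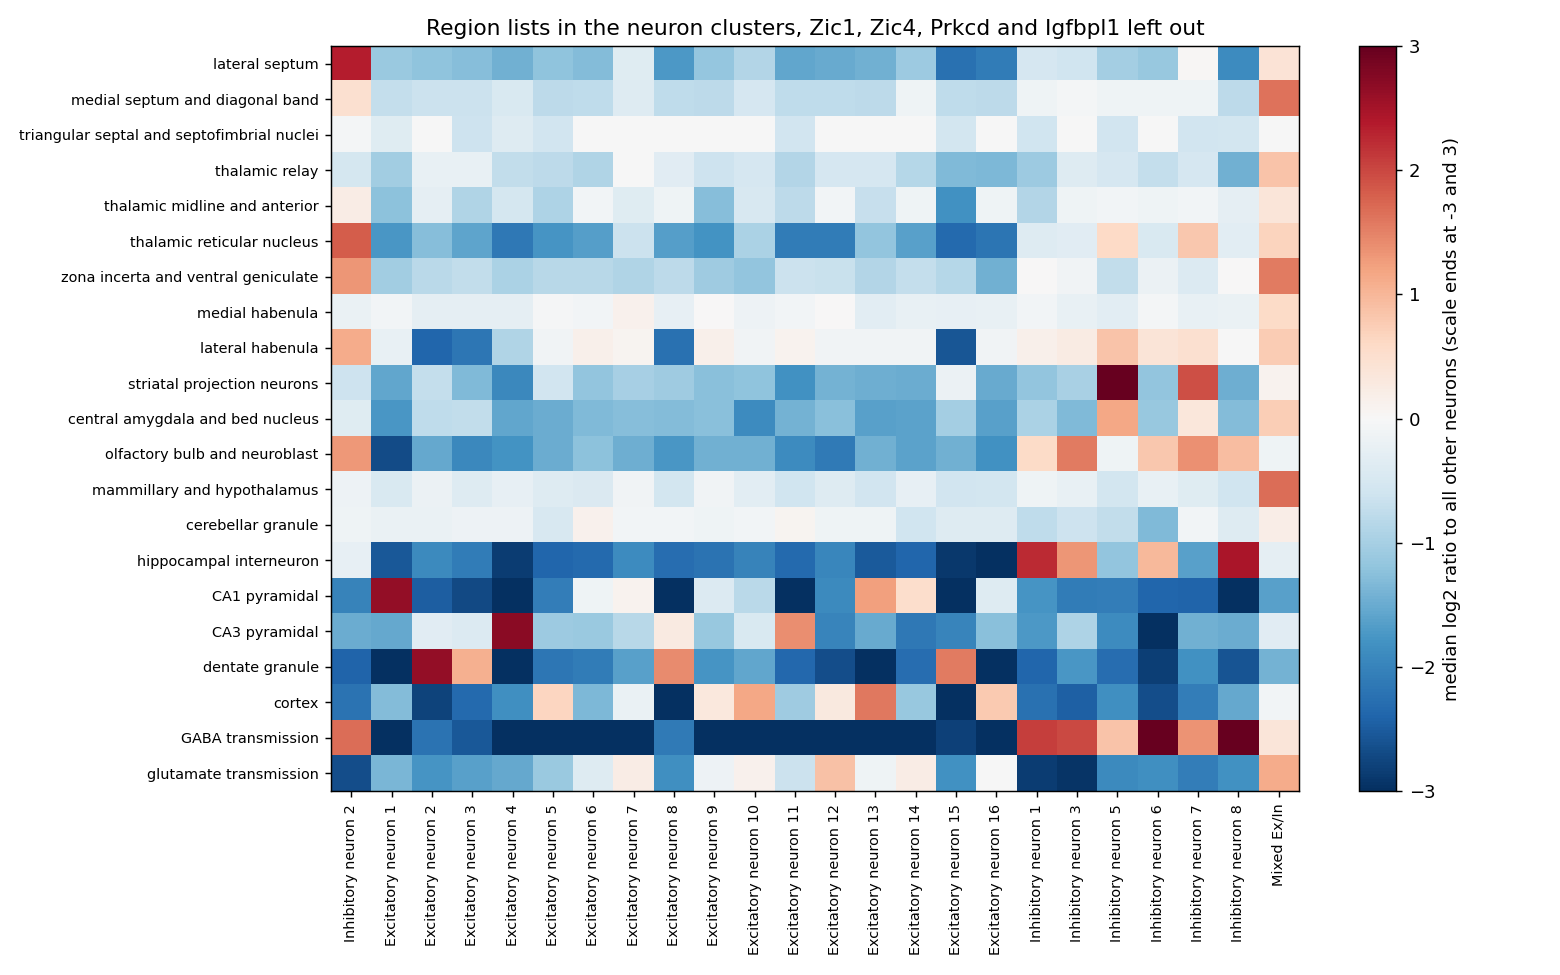
Median log2 ratio to all other neurons of each region or transmitter list (rows) in each of the 24 neuron clusters (columns; Inhibitory neuron 2 at the left), with counts pooled over libraries and the 4 cluster markers left out. The lateral septum, thalamic reticular nucleus and lateral habenula rows each have their highest value in the first column (2.36, 1.81 and 1.11). The striatal row is highest in Inhibitory neuron 5 and the hippocampal interneuron row in Inhibitory neuron 8.

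Markers of other cell classes were given the same comparison. The medians of the astrocyte, oligodendrocyte and microglia lists were 0.14, -0.03 and -0.17, each near 0. The choroid plexus list had a median of 1.13, but its members differed. Clic6 (56.9 against 1.73 CPM), Prlr (169 against 19.8 CPM) and Otx2 (5.34 against 0.421 CPM) were higher. Folr1 (0.879 CPM), Kl (1.17 CPM) and Ttr (231 ± 80.3 CPM against 214 CPM) were not. Ttr, the most abundant transcript of choroid plexus, thus differed by less than its spread between libraries.

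The genes that set the cluster apart most, by the ratio to other neurons, were led by Ano1, which encodes a calcium-activated chloride channel, at 299, 232, 310, 240, 256 and 262 CPM in the library order above, against at most 2.76 CPM in other neurons. Prdm16, a transcription factor of neural progenitors and brown fat, had 221 ± 18.8 CPM against 1.74 ± 0.506 CPM, and was also high in choroid plexus epithelium (928 CPM) and astrocytes. The collagen genes Col6a3 (172 CPM against 1.70 CPM) and Col9a3 (89.5 CPM against 1.99 CPM), the chloride channel family gene Clic4 (189 CPM against 3.33 CPM), the carboxypeptidase gene Cpa6 (228 CPM against 6.69 CPM), Mob3b (233 CPM against 7.02 CPM) and the zinc-finger gene Zfp521 (277 CPM against 8.60 CPM) were among the first 20, as were Zic1, Zic4, Zic5, Zic2, Igfbpl1, Prkcd and Clic6. The other 5 of the 20 have only clone names. These genes were picked by this ratio, so that their library values did not overlap those of other neurons is a description only.

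Receptor and channel genes went both ways. Of 14 GABA-A receptor subunit genes the median log2 ratio was -0.17, 3 were more than 2-fold higher and 1 more than 2-fold lower. Gabrg1 had 92.6 CPM in TBI VEGFC left and 169 to 199 CPM in the other 5 libraries, against 12.1 to 23.5 CPM in other neurons, and was highest here of all 32 clusters. Gabrg3 averaged 1580 ± 92.8 CPM against 513 CPM. The T-type calcium channel gene Cacna1g, which supports burst firing, was also highest here of all clusters, at 79.1 ± 9.09 CPM against 29.2 CPM. The other T-type channel genes were lower, Cacna1h at 17.9 CPM against 53.03 CPM and Cacna1i at 8.90 CPM against 27.9 CPM. Of the 11 burst and pacemaker channel genes 2 were more than 2-fold higher and 4 more than 2-fold lower, among them the potassium channel gene Kcnc2 (77.1 CPM against 381 CPM), and their median was -0.26. Of 15 ionotropic glutamate receptor genes the median was -0.11 and 2 were more than 2-fold lower. Grin2a, an NMDA receptor subunit gene, was lowest here of the 24 neuron clusters, at 310.0 CPM against 1892 CPM. The serotonin receptor gene Htr2c averaged 371 CPM against 116 CPM. Mapt, which encodes tau, was at a like level, 271 ± 20.8 CPM in the cluster and 282 ± 13.4 CPM in other neurons (SD, n = 6 each). The VEGFC receptor genes were rare: Flt4 (VEGFR3) had 8 UMIs over the cluster and Kdr (VEGFR2) none, while the co-receptor genes Nrp1 and Nrp2 averaged 173 and 142 CPM.

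By the whole profile the nearest clusters were mostly inhibitory. Over 11225 genes the cluster's highest rank correlation across genes was with the Mixed Ex/In cluster (Spearman 0.918), then Inhibitory neuron 7 (0.883), Excitatory neuron 7 (0.869), Inhibitory neuron 3 (0.862), Inhibitory neuron 1 (0.859) and Inhibitory neuron 5 (0.851), where genes are not independent replicates and all clusters share libraries. Mixed Ex/In held 34.1 CPM of Zic1 and 12.97 CPM of Ano1. The authors' second clustering, of neurons alone, kept 1048 of the 1066 nuclei (98.3%) in a single cluster, which they made up to 98.5%.

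The cluster was not uniform. At 2000 UMIs per nucleus, Foxp2 was found in 87 of 1027 nuclei and Igfbpl1 in 186, and no nucleus had both, where the product of the shares would give 15.8 nuclei. Foxp2 was likewise never found with Ndnf, a secreted neuronal factor found in 91 nuclei, against a product of 7.71 nuclei, and with Zic4 in 5 nuclei against a product of 23.2 nuclei. Zic1 was found with Foxp2 in 36 nuclei, against a product of 33.1 nuclei, and Prkcd in 17 nuclei, against 25.8 nuclei. Foxp2 went with Meis2 (79 nuclei against a product of 46.7 nuclei) and with Adarb2 (16 nuclei against 3.22 nuclei). Igfbpl1, Zic4 and Ndnf went together, with 76 nuclei for Igfbpl1 and Zic4 against a product of 49.6 nuclei, and 28 nuclei for Igfbpl1 and Ndnf against 16.5 nuclei. Trpc4, Gad1 and Gad2 were found with Foxp2 about as often as the product of their shares (59, 30 and 34 nuclei against 58.2, 25.6 and 33.7 nuclei). These counts are a description over nuclei of 6 libraries.

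**Figure D3:**
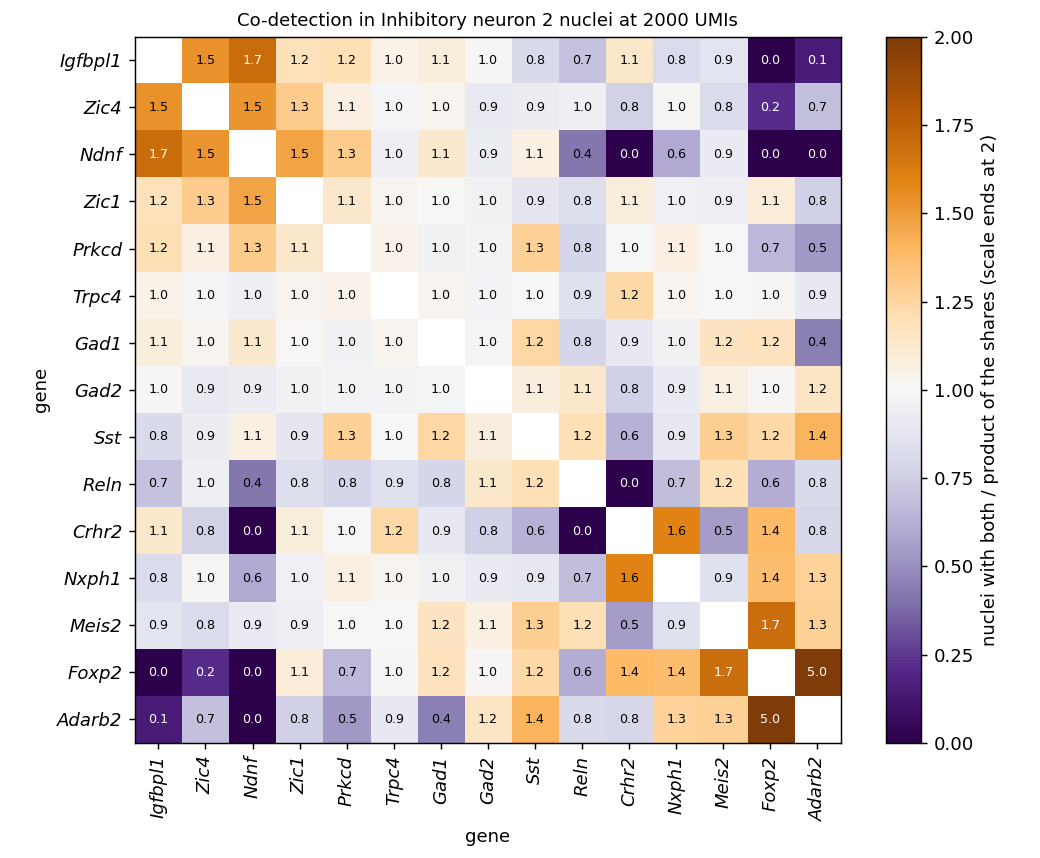
Nuclei of Inhibitory neuron 2 in which both genes had a UMI, divided by the product of the 2 genes' shares, at 2000 UMIs per nucleus (1027 nuclei; the colour scale ends at 2). Foxp2 and Adarb2 form a block at the lower right that is dark (0 to 0.2) against Igfbpl1, and Igfbpl1, Zic4 and Ndnf form a block above 1 at the upper left.

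Without thinning, 103 nuclei (9.66%) had a UMI of Foxp2. They held Trpc4 at 729 CPM, Prdm16 at 242 CPM and Ano1 at 234 CPM, against 666, 224 and 261 CPM in the 963 nuclei without Foxp2, so these 3 genes were present in both. Igfbpl1 had 4.21 CPM in the nuclei with Foxp2, in 1 nucleus of 103, against 121 CPM in those without. Zic1 had 179 CPM against 297 CPM, Prkcd 120.1 CPM against 199 CPM, Zic4 75.8 CPM against 206 CPM, Zic5 23.2 CPM against 77.2 CPM, and Col6a3 44.2 CPM against 176 CPM. Meis2 had 1443 CPM against 676 CPM and the neuregulin receptor gene Erbb4 2618 CPM against 588 CPM. Nuclei with Foxp2 made up 13.04% of the cluster in TBI VEGFC left, 14.8% in TBI GFP left, 11.96% in TBI VEGFC right, 10.2% in TBI GFP right, 7.81% in sham VEGFC right and 5.88% in sham GFP right. The 4 TBI libraries lay above both sham libraries, with 6 to 30 such nuclei a library and no test. Among 7663 genes the index of dispersion over nuclei had a median of 1.10, and Spp1 (22.6), Erbb4 (11.997), Foxp2 (8.79), Adarb2 (7.91) and Nxph1 (7.29) stood far above it.

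The cluster's share of nuclei differed between libraries. It was 1.25% in TBI VEGFC left (46 of 3676 nuclei; Clopper-Pearson 95% bounds 0.918% and 1.67%) and 3.11% in TBI GFP left (169 of 5428; 2.67% and 3.61%). On the right it was 2.15% (92 of 4282, 1.74% to 2.63%) in TBI VEGFC right and 4.14% (205 of 4950, 3.60% to 4.73%) in TBI GFP right. In the sham pair it was 6.40% (384 of 6002, 5.79% to 7.05%) in sham VEGFC right and 3.94% (170 of 4312, 3.38% to 4.57%) in sham GFP right. The share was thus lower with VEGFC in both TBI pairs and higher with VEGFC in the sham pair. The log2 ratios of VEGFC over GFP were -1.32, -0.95 and 0.70, averaging -0.52; an exact permutation test that flips the sign of each of the 3 pairs gave a two-sided p of 0.5, where 0.25 is the smallest possible. The 3 GFP libraries lay between 3.11% and 4.14%. With nuclei that scored at most 0.05 for doublets, the ratios were -4.02, -3.25 and 0.61 and the mean was -2.22 (exact sign-flip p = 0.5), on the 4 and 10 nuclei named above.

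Other clusters moved between the same libraries. Inhibitory neuron 5, where the striatal list was highest, made up 0.0544% of nuclei in TBI VEGFC left and 3.74% in TBI GFP left, 0.981% in TBI VEGFC right and 0.343% in TBI GFP right, and 1.4995% in sham VEGFC right and 1.44% in sham GFP right. Choroid plexus epithelium made up 3.62% and 3.96% in the TBI left pair (VEGFC and GFP), 3.57% and 5.80% in the TBI right pair and 4.43% and 5.57% in the sham pair. How much tissue next to the hippocampus each dissection held is not given by the labels, and its part in the shares was not tested.

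**Figure D4:**
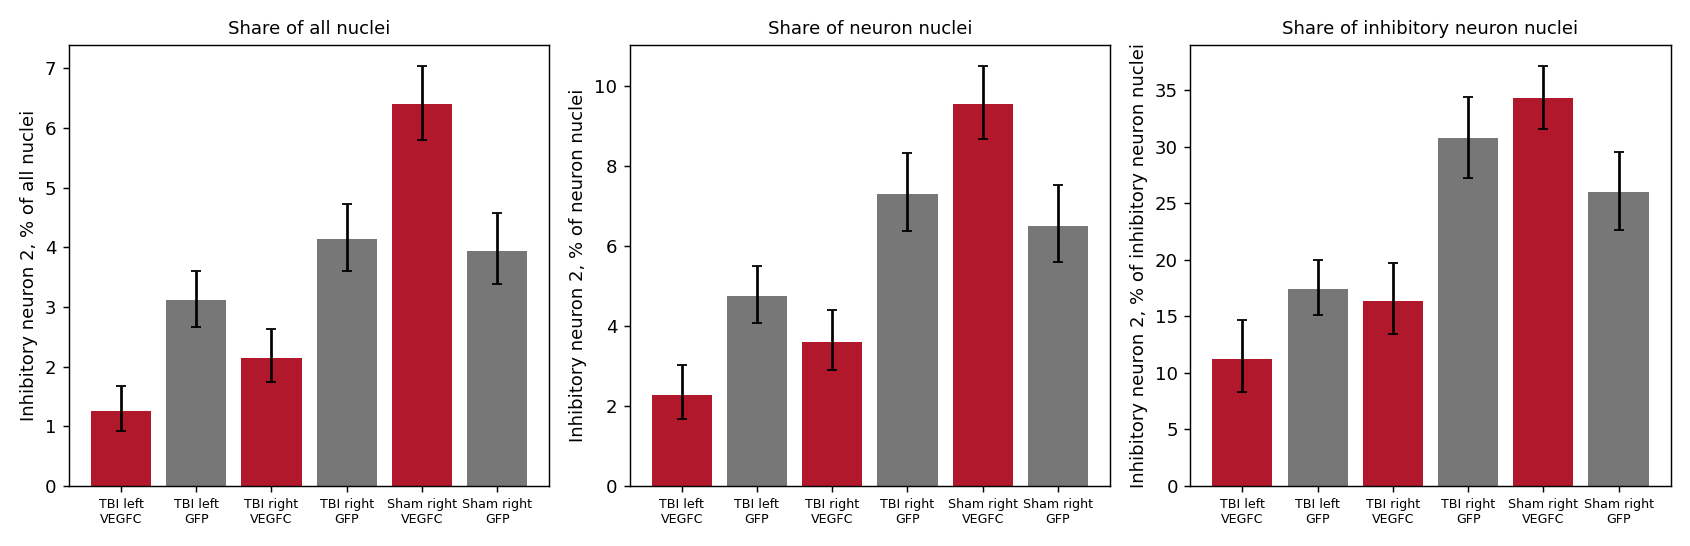
Share of Inhibitory neuron 2 among all nuclei, neuron nuclei and inhibitory neuron nuclei in each library (red, VEGFC; grey, GFP; bars from 0, error bars exact 95% binomial intervals). With each denominator the VEGFC bar is below the GFP bar in both TBI pairs and above it in the sham pair.

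Few genes passed the test for vector, injury or side within the cluster. Counts were summed per library, CPM from here on are on TMM-scaled library sizes, and 10333 genes were tested with edgeR's quasi-likelihood test and Benjamini-Hochberg adjustment. For VEGFC against GFP 1 gene passed an adjusted p of 0.05 (0.00968% of genes tested) and 398 had an unadjusted p under 0.05; DESeq2 also called 1. For TBI right against sham right no gene passed with edgeR (0% of genes tested) and none with DESeq2, while 423 had an unadjusted edgeR p under 0.05. TBI left against TBI right also gave no call with edgeR (0%) or DESeq2, while 410 genes had an unadjusted edgeR p under 0.05. Both comparisons use the TBI right libraries. The counts depended on single libraries: for the vector they were 15 without either sham library, 6 without TBI GFP right, 2 without TBI VEGFC right, and 0 without TBI GFP left or TBI VEGFC left. For injury they were 29 without sham GFP right, 10 without sham VEGFC right, 4 without TBI GFP right and 0 without each other library, and for side 11 without TBI GFP right and at most 2 without any other. A lone library in a context is then assumed to vary like the rest.

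The gene that passed was Gm34544, a long noncoding RNA gene at chr10:71527281-71678840 (GRCm38, plus strand), which is named after its values were seen. It had 7.24, 31.1 and 12.96 CPM in the VEGFC libraries (TBI left, TBI right and sham right), against 69.6, 109 and 53.1 CPM in the GFP libraries, so the vectors did not overlap. These rest on 2, 15 and 19 UMIs with VEGFC and 52, 109 and 48 UMIs with GFP, in 48 of the 1066 nuclei. The log2 change was -2.07 ± 0.26 (SE; edgeR adjusted p = 0.00069961), and it was negative in 3 of 3 pairs. Over the alternatives the edgeR or DESeq2 adjusted p ran between 2.16e-10 and 0.358, and the call was lost without TBI GFP left (adjusted p = 0.358), without TBI VEGFC left (adjusted p = 0.232) and with doublet scores of at most 0.05 (adjusted p = 0.3).

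A difference in the vector effect between the cluster and all other neurons was tested in the same model, and 3 of 17177 genes passed with edgeR (0.0175%), 2 in the positive direction (0.0116%) and 1 in the negative (0.00582%). An unadjusted p under 0.05 was reached by 547 genes, and DESeq2 called 0. Without 1 library the count was 2 (TBI VEGFC left), 4 (TBI GFP left), 7 (either TBI right library), 9 (sham VEGFC right) or 12 (sham GFP right). Gm34544 was one of them, with a difference in log2 change of -2.04 ± 0.27 (SE; edgeR adjusted p = 1.41e-09); in other neurons its log2 ratios of VEGFC over GFP were 0.18, -0.27 and 0.09 in the TBI left, TBI right and sham pairs. Its adjusted p ran between 5.97e-10 and 0.571 over the alternatives, and the call was lost with DESeq2 and with doublet scores of at most 0.05. Alcam, which encodes an adhesion molecule of growing axons, had 264, 301 and 294 CPM in the VEGFC libraries of the cluster, against 157, 212 and 162 CPM in the GFP libraries, with no overlap. In other neurons Alcam had 278, 283 and 246 CPM with VEGFC, against 329, 228 and 285 CPM with GFP. The difference for Alcam was 0.73 ± 0.15 (SE; edgeR adjusted p = 0.0119), while within the cluster alone its log2 change of 0.71 did not pass (edgeR adjusted p = 0.264). The Alcam difference did not pass without TBI VEGFC left (0.64), TBI GFP left (0.67), sham VEGFC right (0.49) or sham GFP right (0.48), with edgeR adjusted p between 0.339 and 1 there and between 0.00039651 and 1 over all alternatives. With doublet scores of at most 0.05 it was 0.61 (edgeR adjusted p = 1), and DESeq2 did not call it. The third gene was Foxp2, with a difference of 0.79 ± 0.17 (SE; edgeR adjusted p = 0.0187). In the cluster Foxp2 had 203, 182 and 117 CPM with VEGFC and 213, 121 and 78.5 CPM with GFP, and in other neurons it had 30.4, 53.5 and 76.0 CPM with VEGFC and 119, 57.4 and 49.5 CPM with GFP. Its log2 ratios in the TBI left pair were thus -0.07 in the cluster and -1.94 in other neurons, and without TBI GFP left or TBI VEGFC left the difference was 0.35 or 0.32 (edgeR adjusted p = 1 each). It did not pass without TBI GFP right or TBI VEGFC right either (0.84 each; edgeR adjusted p = 0.155 and 0.148). Over all alternatives the adjusted p ran between 5.26e-05 and 1. With doublet scores of at most 0.05 it was -0.95 (edgeR adjusted p = 1). Among the other neuron clusters Foxp2 was highest in Inhibitory neuron 7 (2124 CPM) and Inhibitory neuron 5 (620 CPM). These made up 0.571% and 0.0544% of nuclei in TBI VEGFC left, against 2.06% and 3.74% in TBI GFP left. The part of these shares in the Foxp2 difference was not tested.

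**Figure D5:**
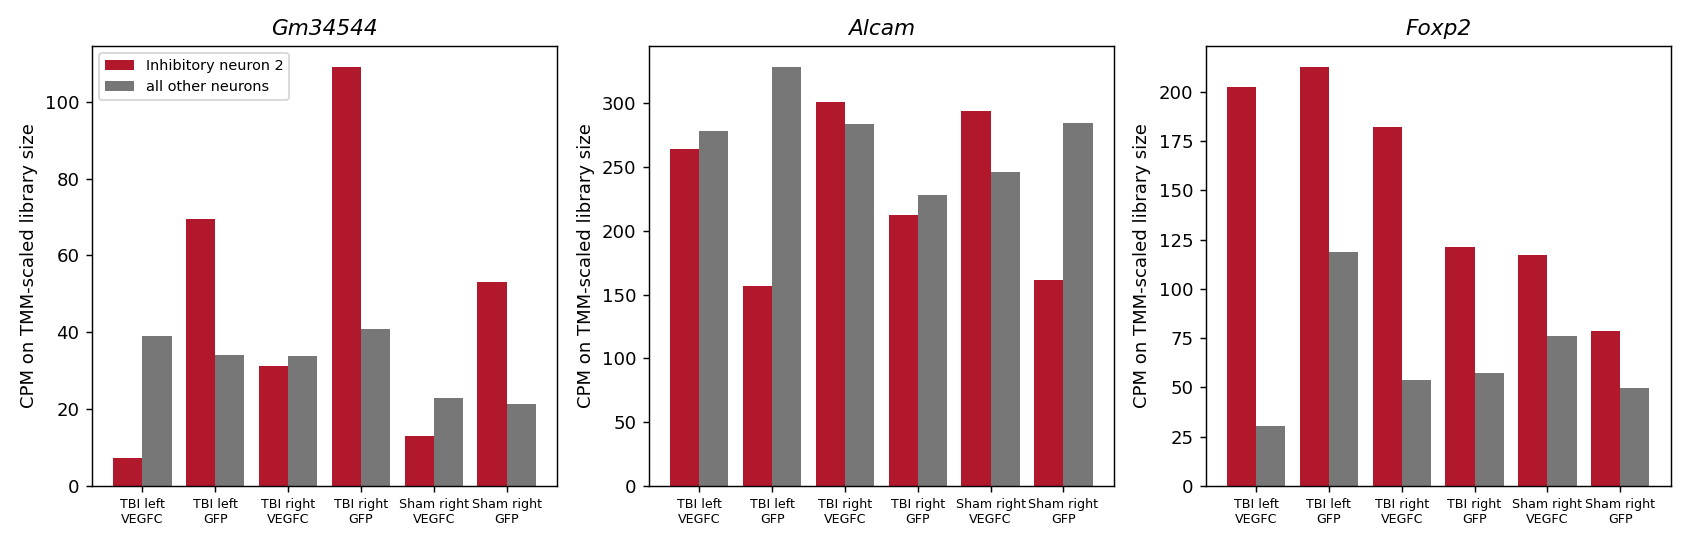
CPM on TMM-scaled library sizes of Gm34544, Alcam and Foxp2 in each library, in Inhibitory neuron 2 (red) and all other neurons (grey), with VEGFC left of GFP in each pair and bars from 0. In the cluster Gm34544 is lower and Alcam higher in each VEGFC library than in its GFP pair, while for Foxp2 the grey bars of the TBI left pair differ most.

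The cluster's own marker genes did not pass in any comparison. For VEGFC against GFP the 4 markers had a median log2 change of -0.01, and the 11 tested lateral septum genes one of -0.06, against 0.00 over all genes, with 0 of each past the threshold by edgeR. For TBI right against sham right the median of the 4 markers was 0.03, and for TBI left against TBI right it was 0.16, again with 0 past.

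Functional lists gave no call either, and each is described by its counts. Of 21 immediate early genes, which report recent firing, 11 were tested. For TBI right against sham right all 11 had a negative log2 change, with a median of -0.67 against -0.00 over all genes, and 0 passed by edgeR. Junb had 20.7 CPM in TBI VEGFC right and 30.0 CPM in TBI GFP right, against 47.1 CPM in sham VEGFC right and 55.3 CPM in sham GFP right (log2 change -0.93 ± 0.30 SE; edgeR adjusted p = 0.999). Fos had 2.07 and 4.004 CPM in the TBI right libraries (1 and 4 UMIs), against 9.55 and 9.96 CPM in the sham right libraries (14 and 9 UMIs). Btg2 had 2.07 and 11.01 CPM in the TBI right libraries, against 15.7 and 21.02 CPM in the sham right libraries, and Egr4 had 18.7 and 14.0 CPM, against 18.4 and 38.7 CPM. These genes were picked as the list members with the smallest p, so their values are a description only. The Egr4 values overlapped between TBI right and sham right. For TBI left against TBI right 10 of the 11 had a positive change, with a median of 0.32 against 0.01 over all genes and 0 past by edgeR; Junb had 61.5 and 36.1 CPM in the TBI left libraries.

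The other lists gave no call in any comparison. For VEGFC against GFP the medians were -0.02 for 12 GABA-A receptor subunit genes, -0.10 for 14 ionotropic glutamate receptor genes, 0.01 for 17 genes of the unfolded protein response, 0.05 for 9 pacemaker and burst channel genes and -0.01 for 13 genes of tau and its kinases, with 0 past by edgeR in each. Of the 10 VEGF ligands and receptors, 4 were tested for vector, injury and side and 9 for the difference from other neurons, and 0 passed by edgeR. For TBI left against TBI right 4 of 4 were positive (median 0.34), and for TBI right against sham right 4 of 4 were negative (median -0.23). Vegfa had 28.9 and 25.4 CPM in the TBI left libraries (VEGFC and GFP), against 12.4 and 11.01 CPM in the TBI right libraries (log2 change 1.20 ± 0.46 SE; edgeR adjusted p = 1), on 8 and 19 UMIs against 6 and 11. Nrp2 had 163 and 166 CPM in the TBI left libraries against 114 and 137 CPM in the TBI right libraries (log2 change 0.36; edgeR adjusted p = 1), and the change was 0.13 with doublet scores of at most 0.05.

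Of the genes with the smallest p in each comparison, none named here passed by edgeR with all 6 libraries and the low-count filter. With VEGFC the phosphodiesterase gene Pde10a had 557, 589 and 582 CPM in the TBI left, TBI right and sham right libraries, against 384, 416 and 439 CPM with GFP (log2 change 0.48; edgeR adjusted p = 1), but with doublet scores of at most 0.05 the log2 change was 0.04. Cdh9, a cadherin gene, had 43.4, 24.9 and 43.0 CPM with VEGFC, against 20.1, 20.02 and 14.4 CPM with GFP (log2 change 1.06, and 0.67 without either sham library). Lamp5 had 10.9, 10.4 and 10.9 CPM with VEGFC, against 20.1, 27.0 and 27.7 CPM with GFP (log2 change -1.27; edgeR adjusted p = 1). For injury, Dalrd3 had 139 and 161 CPM in the TBI right libraries (VEGFC and GFP), against 94.1 and 86.3 CPM in the sham right libraries, and Sgcz, which encodes a sarcoglycan, had 170 and 271 CPM against 485 and 334 CPM (log2 change -0.87; edgeR adjusted p = 0.999). The Sgcz change was 0.19 with doublet scores of at most 0.05, and -0.36 without sham VEGFC right or -0.50 without TBI VEGFC right, none of which passed. It passed without sham GFP right (-1.39; edgeR adjusted p = 1.29e-09), without TBI GFP right (-1.35) and with no low-count filter, and its adjusted p ran between 1.29e-09 and 1 over all alternatives. For side, Nell1 had 123 and 203 CPM in the TBI left libraries, against 64.3 and 85.1 CPM in the TBI right libraries (log2 change 1.17 ± 0.23 SE; edgeR adjusted p = 0.579). Over the alternatives the adjusted p of Nell1 ran between 0.000212 and 1; it passed without either sham library and with no low-count filter, and its change was 0.63 without TBI GFP left. Fgf10, a growth factor gene, had 18.1 and 22.7 CPM in the TBI left libraries, against 68.4 and 54.1 CPM in the TBI right libraries (log2 change -1.49; edgeR adjusted p = 1), and passed without TBI GFP right (-2.22; edgeR adjusted p = 0.0196).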

How the data were processed

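Single nuclei were sequenced with the 10x Genomics 3' v3.1 kit, per the labels' protocols. The submitters' processing notes name Cell Ranger 7.0.1, Scanpy and build mm10; how these were set is not stated there. Raw UMI counts per gene were deposited for 26049 genes in 28650 nuclei. The deposited table of nuclei gives, per the file headers, the percent of mitochondrial counts and a doublet score as a fraction from 0 to 1. Every nucleus had at least 1001 UMIs, a mitochondrial percent up to 0.999 and a doublet score up to 0.099; no further nuclei were removed here and no doublet caller was run. Clusters, classes and libraries are the authors' deposited annotation.

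Levels are CPM of counts summed over a set's nuclei per library, and ratios are log2 with 1 CPM added to each mean. Sums of the cluster were tested with edgeR 4.0.16 (filterByExpr, TMM, quasi-likelihood) under context plus vector, which leaves 2 residual degrees of freedom. These hold any change of the vector effect with injury or side. The fit borrowed variance across genes, with 19.07 prior degrees of freedom. The difference from other neurons added the set, its context and its vector terms with the library as block. P-values were adjusted by Benjamini-Hochberg over all genes tested, and the scripts were tested on simulated data. DESeq2 1.42.0 was the alternative test. Others were scaling, the low-count filter, doublet scores of at most 0.05, each library left out, other denominators and, chosen after seeing the data, nuclei kept together by the second clustering. Named genes are the 4 markers, list members, the first 20 genes by ratio and, per comparison, up to 10 a direction past the threshold or the 5 with the smallest p, with a mean of at least 10 CPM, the same direction in every pair and no clone name. Gm34544 has a clone name and Foxp2 differed in direction between pairs, so both were named among the calls after their values were seen. The cluster and the lists were chosen with earlier results of these data known. Thinning drew 2000 UMIs per nucleus once. Promoter sequence is from RefSeq.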

Additional observations from a re-analysis of the deposited data

Results flagged for a closer look

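The vector ratio of the cluster's share of nuclei had opposite signs by injury: the log2 ratio of VEGFC over GFP was -1.32 in the TBI left pair and -0.95 in the TBI right pair, against 0.70 in the sham right pair. The difference between pairs was not tested, as each has 1 library per vector. Doublet scores of the cluster were higher in both TBI VEGFC libraries than in the other 4, and their part in the ratio was not tested.

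The vector effect of 3 genes differed between the cluster and all other neurons in edgeR's test of the difference, by -2.04 on the log2 scale for Gm34544, 0.73 for Alcam and 0.79 for Foxp2. None of the 3 passed by DESeq2. How far the shares of clusters among the other neurons entered the Foxp2 difference was not tested.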

How the results depend on the processing

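In the order vector, injury, side and difference from other neurons, the counts of 1, 0, 0 and 3 became 3, 2, 2 and 2 with no low-count filter, and the difference count became 0 with DESeq2 and 0 with doublet scores of at most 0.05. Leaving out each library gave 0 to 15 calls for the vector, 0 to 29 for injury, 0 to 11 for side and 2 to 12 for the difference; the causes were not tested, and each such fit has fewer libraries. With doublet scores of at most 0.05 the vector count stayed at 1 but held a different gene, Ptprm, 0 calls being shared. Scaling, the vector without context terms and the second clustering's nuclei left each count as it was. The Foxp2 difference was -0.95 with doublet scores of at most 0.05. The mean log2 share ratio stayed negative, from -2.22 (doublet scores of at most 0.05) to -0.38 (share of inhibitory nuclei). The exact sign-flip p was 0.5 in each of these settings. With a library left out, and its pair with it, the mean ran from -1.13 to -0.12. The 2 pairs then left are too few for the sign-flip test. The lateral septum median was 2.46 with doublet scores of at most 0.05. Depth limits rare genes: the cluster had 280861 UMIs in TBI VEGFC left, where Gm34544 rests on 2 UMIs, and Fos rests on 1 UMI in TBI VEGFC right.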
